A study of Mus musculus with 2 samples.

Results

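The imprinted growth-control genes examined here are *H19*, *Meg3*, *Grb10*, *Dlk1*, *Peg3*, *Peg10*, *Mest*, *Plagl1* and *Ndn*, which are 9 of the 31053 genes counted in each library. They were chosen by symbol, as genes that are textbook examples of imprinting and that act on growth or differentiation, and all 9 symbols were found. The choice was made with earlier results of these data known, so it was not independent of them. Primary mouse brain pericytes (PCs, the mural cells of brain capillaries) were profiled by droplet single-cell RNA sequencing, with cells taken at passage 5 for 1 library (PC5) and at passage 20 for another (PC20). The study's methods describe wild type female C57BL/6N mice of 6 to 8 weeks, 6 animals pooled for each isolation, growth on collagen-coated plates in endothelial cell growth medium at first and in pericyte medium afterwards, and no transgene or treatment. By those methods PC5 and PC20 came from separate isolations, whereas the description deposited with the data speaks of only 1, so the effects of passage and of isolation cannot be told apart. With 1 library per passage there is no replicate, no test was possible and no p-value is given; the 95% intervals cover counting error only.

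An imprinted gene is expressed mainly from the copy inherited from the mother or from the father. The choice is set by DNA methylation laid down in the egg or the sperm at control regions, and it is kept through cell division by a maintenance methyltransferase and by zinc finger proteins that guard those regions. Imprinted genes lie in clusters, are highly expressed in the embryo and placenta, and many of them fall in expression after birth. *H19*, *Meg3* and *Grb10* are mostly expressed from the maternal copy, while *Dlk1*, *Peg3*, *Peg10*, *Mest*, *Plagl1* and *Ndn* are expressed from the paternal copy. The mice were inbred and counting was at the 3′ end, so the values below are the summed output of both copies, and which copy was read cannot be told.

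Cells were kept if they had more than 1000 genes and a mitochondrial share under 20%. PC5 held 9950 cells with a median of 21700 unique molecular identifiers (UMIs, tags of captured RNA molecules) and PC20 held 4749 cells with a median of 33424. Of the kept cell barcodes, 20 were present in both libraries, which is 0.41% of the barcodes of PC20. The PC20 cells with a shared barcode held 0 UMIs of *H19*, *Meg3*, *Peg3* and *Ndn*, and 43 of the 9144 *Plagl1* UMIs. Levels are given as CPM, UMIs scaled to a library total of 1000000. Of the PC markers, *Pdgfrb* (44.6 and 5.43 CPM), *Cspg4* (5.55 and 0.0994 CPM) and *Rgs5* (405 and 0 UMIs) were higher in PC5, *Anpep* was at 1.93 CPM and 3.00 CPM, and *Abcc9* had 1 UMI in each library. The summed level of the 5 PC markers was 53.9 CPM in PC5 and 8.53 CPM in PC20. Markers of other vascular and perivascular cells differed as well. All 4 fibroblast markers (*Pdgfra*, *Lum*, *Dcn*, *Col3a1*) were higher in PC5, with summed levels of 1302 CPM and 101 CPM. The 4 endothelial markers summed to 181 CPM in PC5, nearly all of it *Cdh5* and *Kdr*, and to 0.246 CPM in PC20. Of these 4, *Cldn5* had 14 UMIs in PC5 and 8 in PC20. Its log2 ratio of PC5 over PC20 was 0.58, with an interval of -0.77 to 2.04 that includes 0.

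Genes detected in 10% or more of the cells, in PC5 or in PC20, were taken as expressed, which held for 10504 genes and for 7 of the 9 imprinted genes, *Dlk1* and *Mest* being the exceptions. Of those 7, 5 were past 2-fold higher in PC5 (*H19*, *Meg3*, *Grb10*, *Peg3* and *Ndn*), 2 were past 2-fold higher in PC20 (*Peg10* and *Plagl1*), and 0 lay within 2-fold. However, 6 of the 7 passed the minimum of 10% only through the library in which they were higher, so they had to differ and their count is a description of these genes alone. Only *Peg10* was found in 10% of cells in both libraries. Among all expressed genes, 17.9% were past 2-fold higher in PC5 and 19.1% were past 2-fold higher in PC20, together 37.0%. Past 3-fold, 5 of the 7 genes were higher in PC5 and 1, *Plagl1*, in PC20, beside 10.0% and 9.59% of all expressed genes, together 19.6%. The median log2 ratio of PC5 over PC20 was -0.03 over all expressed genes. Summed over all 9 genes, the level was 196 CPM in PC5 and 68.2 CPM in PC20. The 3 maternally expressed genes gave 93.8 CPM and 7.15 CPM, and the 6 paternally expressed genes gave 102 CPM and 61.0 CPM, so that most of what PC20 held came from the paternal group, and within it from *Plagl1*.

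**Figure D1:**
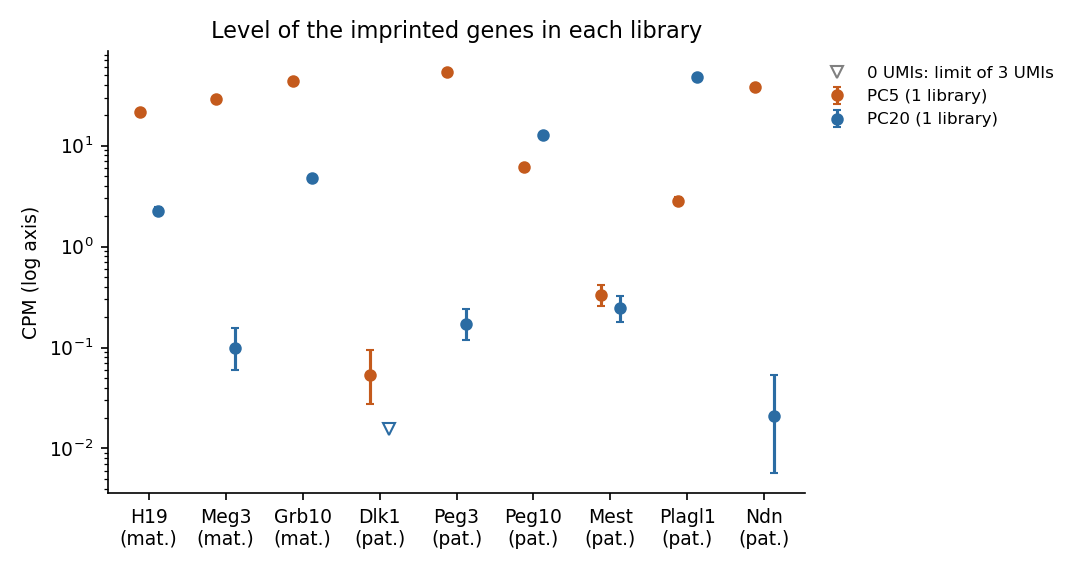
Level of each of the 9 imprinted genes in PC5 and PC20, in CPM on a log axis, with exact Poisson 95% intervals of counting error (mat., maternally expressed, and pat., paternally expressed). *Ndn*, *Peg3* and *Meg3* lie more than 100-fold apart, *Plagl1* and *Peg10* are higher in PC20, and *Dlk1* with 0 UMIs in PC20 is drawn at the level of 3 UMIs.

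*H19* and *Meg3* are long noncoding RNAs of maternally expressed loci, and both are used as markers of imprinting. *H19* lies on chromosome 7 from 142575529 to 142578143 on the minus strand (GRCm38, GENCODE M21, a lincRNA). Its first exon gives rise to miR-675, a microRNA reported to restrain growth. *H19* measured 21.3 CPM in PC5 (95% interval 20.7 to 22.0, 4762 UMIs) against 2.27 CPM in PC20 (2.06 to 2.49, 434 UMIs), and the log2 ratio of PC5 over PC20 was 3.23 (3.09 to 3.38). Before any correction for depth, 17.7% of PC5 cells held an *H19* UMI, compared with 3.68% for PC20. Cells were then thinned at random to the same number of UMIs each, which removes the difference in depth, and the shares were 12.2% and 1.30%.

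*Meg3* lies on chromosome 12 from 109541001 to 109571726 on the plus strand, downstream of *Dlk1*. It had 6457 UMIs in PC5 and 19 in PC20, or 28.9 CPM (28.2 to 29.7) against 0.0994 CPM (0.0599 to 0.155), and its log2 ratio was 8.19 (7.54 to 8.92). The thinned share of cells was 21.2% in PC5 and 0.156% in PC20. Free RNA can give UMIs in cells that do not express a gene. The thinned share of 8 neuronal, microglial and oligodendrocyte genes that PCs should lack reached at most 0.0904% in PC5 and 0.0224% in PC20, so *Meg3* in PC20, with 7 positive thinned cells, was above that background by a few cells only. Only 105 of the 10504 expressed genes had a larger ratio than *Meg3*, whereas 428 had a larger ratio than *H19*. Both genes passed the minimum share of cells for expressed genes only through PC5, so they had to differ and these ranks are a description only. The rank of *Meg3* also rests on its 19 PC20 UMIs.

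The loci of *H19*, *Meg3* and *Mest* also hold microRNAs. Their mature sequences are shown because a 3′ count of the host is the only readout of these loci here; the microRNAs themselves were not measured. They are from RefSeq (GRCm38.p6), 5′ to 3′, with the seed (bases 2 to 8) in capitals, and the 7 sequences have 7 different seeds.
miR-675-5p (*H19*): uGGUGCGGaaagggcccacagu
miR-675-3p (*H19*): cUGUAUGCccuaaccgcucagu
miR-770-5p (*Meg3*): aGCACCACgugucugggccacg
miR-770-3p (*Meg3*): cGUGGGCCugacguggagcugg
miR-1906 (*Meg3*): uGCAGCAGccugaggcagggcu
miR-335-5p (*Mest*): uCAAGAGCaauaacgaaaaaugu
miR-335-3p (*Mest*): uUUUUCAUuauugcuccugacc

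*Grb10* encodes an adaptor protein that binds the insulin and IGF1 receptors and restrains their growth signal. It lies on chromosome 11 from 11930508 to 12038683 on the minus strand. *Grb10* was the member seen in the most thinned PC5 cells, 34.4% (33.5 to 35.4), against 3.49% (2.97 to 4.07) in PC20. Its PC5 level was 43.5 CPM (42.7 to 44.4) and its PC20 level was 4.78 CPM (4.48 to 5.10), giving a log2 ratio of 3.19 (3.09 to 3.29). With *H19* and *Meg3*, all 3 maternally expressed members were thus higher in PC5. Each passed the minimum share of cells for expressed genes only through PC5, so they had to differ and this count is a description only. Of all expressed genes, 17.9% were past 2-fold higher in PC5.

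*Peg3* and *Ndn* are paternally expressed and encode proteins that hold back proliferation or promote differentiation, *Peg3* a zinc finger transcription factor and *Ndn* necdin, a MAGE family protein that binds E2F factors. *Peg3* lies on chromosome 7 from 6703892 to 6730431 on the minus strand, and *Ndn* on the same chromosome from 62346569 to 62350262 on the plus strand. *Peg3* measured 54.2 CPM in PC5 (53.2 to 55.2, 12090 UMIs) against 0.173 CPM in PC20 (0.119 to 0.242, 33 UMIs), with a ratio on the log2 scale of 8.29 (7.80 to 8.83). *Ndn* measured 38.2 CPM in PC5 (37.4 to 39.0, 8527 UMIs) against 0.0209 CPM in PC20 (0.00570 to 0.0536, 4 UMIs), with a ratio on the log2 scale of 10.83 (9.48 to 12.71). *Peg3* was seen in 32.5% of thinned PC5 cells and *Ndn* in 31.6%. In PC20 *Peg3* was seen in 0.134% of thinned cells and *Ndn* in 0.0224%, which is 1 cell and no more than the background share, so at this depth *Ndn* was not detectable in PC20 above free RNA, and its ratio is not ranked among other genes.

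*Plagl1*, also known as *Zac1*, encodes a paternally expressed zinc finger transcription factor that can stop the cell cycle and that regulates other imprinted genes. It lies on chromosome 10 from 13060504 to 13131694 on the plus strand. *Plagl1* went the opposite way from *Peg3* and *Ndn*. It measured 2.84 CPM in PC5 (2.62 to 3.07, 633 UMIs) against 47.8 CPM in PC20 (46.9 to 48.8, 9144 UMIs), which is 16.9-fold higher in PC20 and -4.08 as a log2 ratio (-4.19 to -3.96). The thinned share of cells was 2.60% (2.28 to 2.95) in PC5 and 31.3% (29.9 to 32.7) in PC20. Of the 10504 expressed genes, 180 (1.71%) had a lower ratio. *Plagl1* passed the minimum of 10% of cells only through PC20, so it had to differ and this rank is a description only.

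*Peg10* derives from a retrotransposon and encodes a gag-like protein needed for the placenta. It lies on chromosome 6 from 4747306 to 4760517 on the plus strand. *Peg10* measured 6.15 CPM in PC5 (5.83 to 6.49) against 12.8 CPM in PC20 (12.3 to 13.3), and the interval of its log2 ratio of -1.05, from -1.15 to -0.96, includes 2-fold. Its thinned share was 5.75% in PC5 and 12.2% in PC20. This difference was ordinary among the expressed genes, of which 1860 (17.7%) had a lower ratio.

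*Dlk1* and *Mest* were scarce in both libraries. *Dlk1*, which encodes a secreted and membrane-bound regulator of progenitor cells and lies on chromosome 12 from 109452823 to 109463336 on the plus strand, had 12 UMIs in PC5 and 0 in PC20. Its thinned share in PC5 was 0.0565%, below the highest background gene, so neither library had *Dlk1* above free RNA and no ratio is given. *Mest*, which encodes an enzyme of the alpha/beta hydrolase family and lies on chromosome 6 from 30723547 to 30748465 on the plus strand, gave 74 UMIs at passage 5 and 47 at passage 20. That is 0.332 CPM and 0.246 CPM, a log2 ratio of 0.43 whose interval, -0.11 to 0.99, includes 0. The last 912 bases of *Mest* overlap *Copg2* on the opposite strand.

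**Figure D2:**
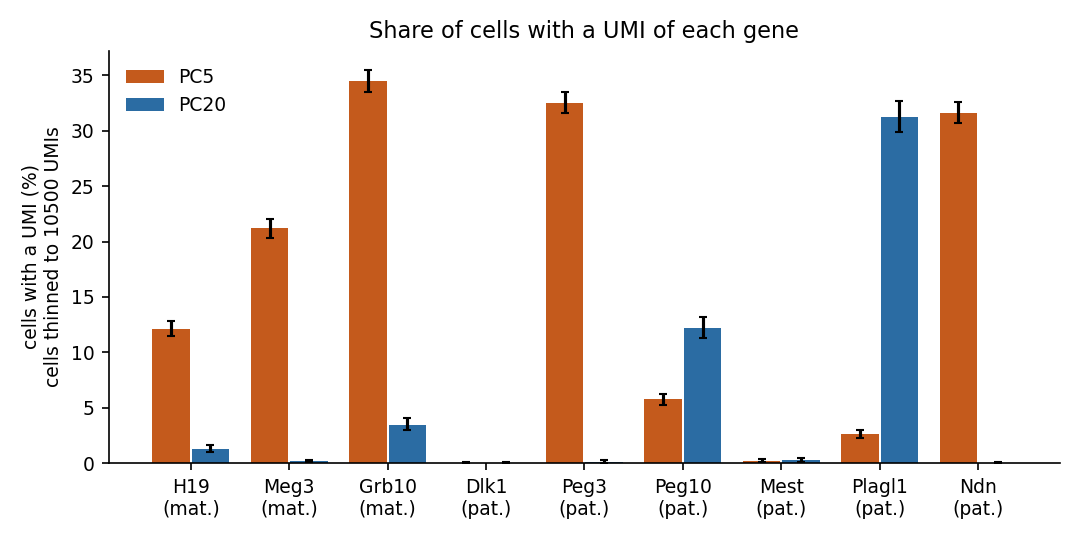
Share of cells with at least 1 UMI of each gene, in percent, after thinning cells to equal depth (8847 PC5 cells and 4474 PC20 cells), with Clopper-Pearson 95% intervals. *Grb10*, *Peg3* and *Ndn* were each in 31.6% to 34.4% of PC5 cells, and *Plagl1* in 31.3% of PC20 cells.

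**Figure D3:**
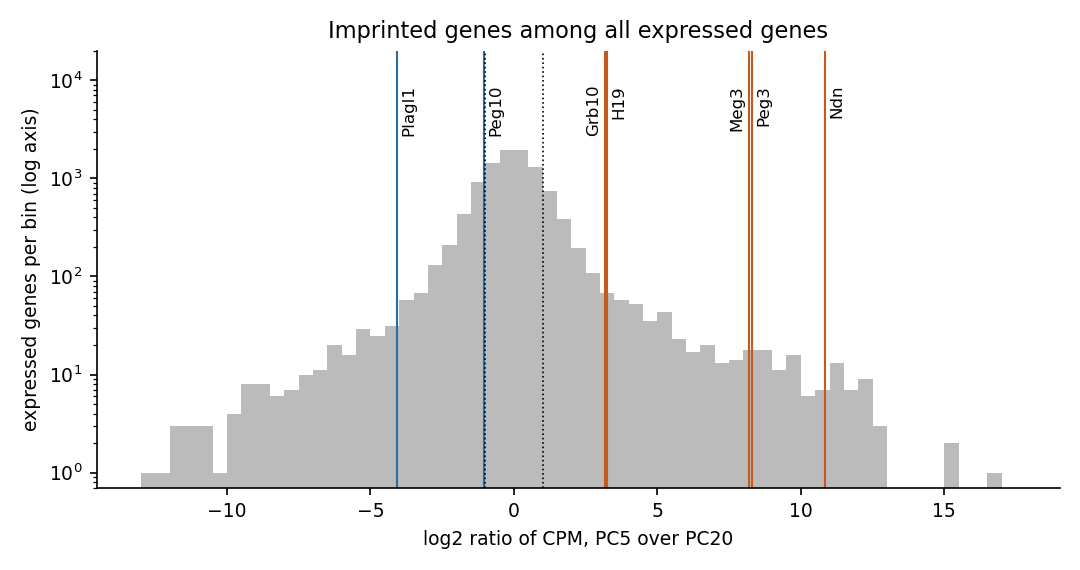
Log2 ratio of PC5 over PC20 for all 10504 expressed genes as a histogram, with the 7 expressed imprinted genes marked. Most genes lie between -1 and 1, and none of the 7 does.

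Fibroblast markers, and endothelial markers other than *Cldn5*, moved between the libraries in the same direction as the 5 genes that were higher in PC5. The ratios were therefore taken again in cells with no UMI of *Pdgfra*, *Lum*, *Dcn*, *Cdh5* or *Kdr*. This left 1229 of 8847 thinned PC5 cells and 4445 of 4474 thinned PC20 cells. In these cells the log2 ratio was 10.72 for *Ndn* (8.23 to 16.03), 8.35 for *Peg3* (7.30 to 9.67) and 6.69 for *Meg3* (5.83 to 7.71). These values rest on 1, 7 and 11 PC20 UMIs. The ratio was 3.36 for *Grb10*, 2.62 for *H19* and -3.69 for *Plagl1*. *Peg10* was then within 2-fold at -0.84, with an interval of -1.15 to -0.54 that includes 2-fold. Of the 7 genes, *H19* was the one that differed most between the PC5 cells with and without those markers, at 24.1 CPM in the 7618 cells with them and 13.4 CPM in the 1229 without. *Grb10* was nearly level between them, at 44.9 CPM and 42.8 CPM. These cells were not free of fibroblast marker UMIs, since *Col3a1* was found in 97.3% of all thinned PC5 cells and 56.5% of all thinned PC20 cells, and a cell without a UMI of a marker can still express it.

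Among the 7 genes compared over thinned PC5 cells, *H19* had the highest variance for its mean. Its UMIs had a variance of 3.75 times the mean, above that of all the other genes of like mean level (1168 compared, median 1.05). The 1% of PC5 cells with most *H19* held 29.7% of its UMIs, a share that also depends on how few cells hold a gene and was 48.2% for *Plagl1*. In PC5, 49 cells had 6 UMIs or more, with a maximum of 25. In PC20 the 434 *H19* UMIs lay in 175 cells before thinning, 10 of which held 176 UMIs (40.6%), and 1 cell held 37. After thinning, 77.6% of the positive PC20 cells held 1 UMI of *H19*, compared with 60.5% in PC5, while the variance was 4.29 times the mean.

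*Ndn* and *Grb10* were spread more evenly over PC5, with a variance of 1.11 and 1.20 times the mean against a median of 1.08 for genes of like level. *Meg3* (1.88) and *Peg3* (2.14) were between these and *H19*, with 13 and 20 of the genes of like level above them. In PC20, *Plagl1* had a variance of 2.17 times the mean, with 15 of 1122 genes of like level above it.

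**Figure D4:**
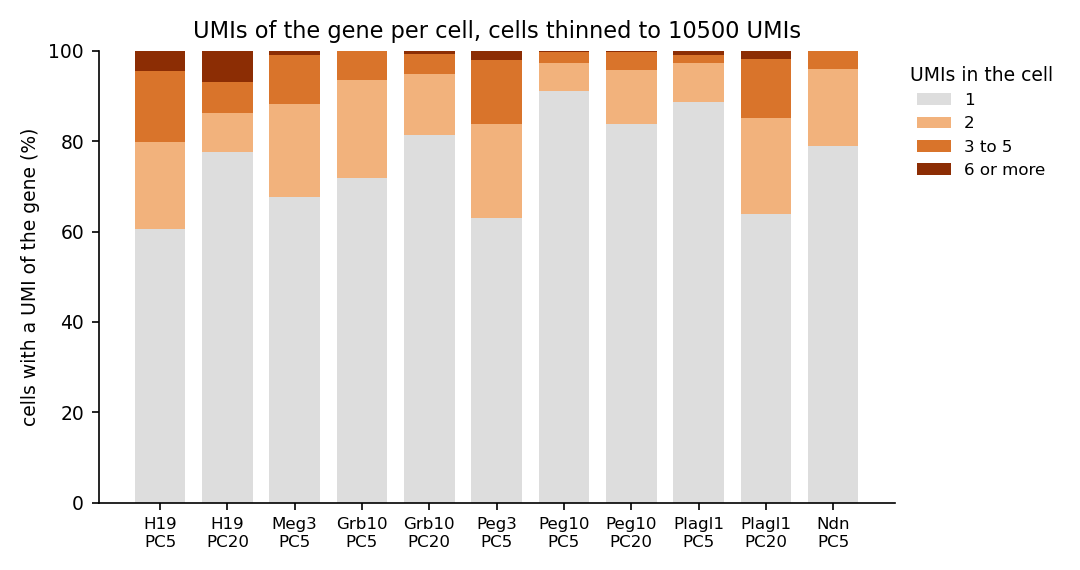
Make-up of the positive thinned cells by the number of UMIs they hold (1, 2, 3 to 5, 6 or more), in percent, for each gene and passage with at least 50 positive cells. Of the PC5 cells positive for *H19*, 60.5% hold 1 UMI and 4.56% hold 6 or more.

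Most PC5 cells held a UMI of at least 1 of the 9 genes, and most PC20 cells did not. After thinning, the shares of such cells were 79.4% and 41.8%, with a mean of 1.41 and 0.488 genes per cell. At least 4 genes were found in 286 PC5 cells and in 2 PC20 cells. Over the 20 pairs of members common enough to compare in PC5, the number of cells that held both was 0.680 to 1.35 times the number that independence gives, with a median of 1.05. The lowest pair was *H19* with *Plagl1* and the highest was *Peg3* with *Plagl1*. In PC20 only 2 pairs could be compared, *Grb10* with *Plagl1* at 1.33 and *Peg10* with *Plagl1* at 1.16. Pairs share the library and its depth, and these ratios are a description.

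Some members were found in the same cells as a neighbour on the chromosome more often than this. *Mirg*, a noncoding RNA of the *Dlk1-Meg3* domain, was found with *Meg3* in 85 PC5 cells, which is 1.89 times the number that independence gives. *Usp29*, which starts 146 bases from *Peg3* on the opposite strand, was found with *Peg3* in 66 cells against 34.2, a ratio of 1.93. *Cdkn1c*, which encodes the cell cycle inhibitor p57 in the *H19* region, was found with *H19* in 129 cells against 71.9, a ratio of 1.79. Neighbours of the other domains showed less, with 1.03 for *Ndn* and *Peg12*, 1.02 for *Ndn* and *Snrpn*, and 1.06 for *Peg10* and *Sgce*. *Mirg*, *Usp29*, *Snrpn* and *Sgce* are named after their values were seen.

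The stretch between the starts of *Peg3* and *Usp29* is shown because both genes had few or 0 UMIs in PC20, and a stretch of *Plagl1* because that gene had the largest difference toward PC20 of the 9. The *Plagl1* stretch precedes a RefSeq start that lies inside the gene as placed above, not at its outer end. They are from RefSeq (GRCm38.p6), 5′ to 3′ on the strand of the gene, with every CG dinucleotide, the target of DNA methylation, in capitals.
*Peg3*, chr7:6730432-6730577, minus strand: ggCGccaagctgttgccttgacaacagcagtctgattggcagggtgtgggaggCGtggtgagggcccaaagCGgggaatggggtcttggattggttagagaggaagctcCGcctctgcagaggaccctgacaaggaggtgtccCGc
*Plagl1*, chr10:13090582-13090690, plus strand: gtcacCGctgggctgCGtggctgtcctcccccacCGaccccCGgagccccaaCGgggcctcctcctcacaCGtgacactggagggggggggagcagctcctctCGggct

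The *Peg3* stretch has 146 bases with 5 CG, and the *Plagl1* stretch has 109 bases with 7 CG. The 250 bases before an annotated start were found for 7 of the 9 genes, in 11 windows, which held a median of 8 CG, from 0 to 40, while all 32851 windows had a median of 6. A *Grb10* window had the 40, a number that 1.31% of all windows reach, and the *Plagl1* window had 19. TGCCGC, a core of motifs bound by the imprint guardian ZFP57, was searched on both strands and was found in 4 of the 11 windows, of *Meg3*, *Plagl1* and *Mest*, the *Mest* windows overlapping, and in 8.68% of all windows. A match is a string of letters and no measured site, and methylation was not measured here.

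Cycling cells, taken as thinned cells with a UMI of *Mki67* or *Top2a*, made up 35.3% of PC5 and 57.9% of PC20. In PC5 *Plagl1* was higher in cycling than in other cells, by 0.83 on the log2 scale (0.48 to 1.18), and so were *Peg10* at 0.49 and *Peg3* at 0.39 (0.31 to 0.48). *Meg3* was lower in cycling cells, at -0.27 (-0.38 to -0.15), and *Ndn* was level at -0.04. For each of these genes the difference was smaller than that between the passages. In PC20 *Plagl1* (-0.05) and *Peg10* (0.01) were level, while *Grb10* was 2.76 CPM in cycling cells and 6.22 CPM in others, a log2 ratio of -1.17 (-1.61 to -0.75), against 0.17 (0.08 to 0.26) in PC5. In cells without a UMI of either cycling gene, each of the 7 expressed genes stayed past 2-fold in its direction between the passages.

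The genes whose counts followed a member most closely over the cells of a library were sought among all genes in at least 10% of thinned cells. Members below that share in a library were not examined there. This left *H19*, *Meg3*, *Grb10*, *Peg3* and *Ndn* in PC5, and *Peg10* and *Plagl1* in PC20. Pearson's *r* of log2(UMI + 1) reached 0.2 as a positive value only for *Plagl1* in PC20, with *Rsad2* at 0.27 and *Cxcl10* at 0.22 over 4474 cells, both of them interferon-induced genes. The negative values of largest size were similar, at -0.21 for *Peg3* in PC5 with *Fth1* and with *Rps20*, which are named after their values were seen. *Plagl1* was at 71.2 CPM in the 1490 PC20 cells with an *Rsad2* UMI and at 39.3 CPM in the others, and at 111 CPM in the 496 cells with a *Cxcl10* UMI and 42.3 CPM in the others. In PC5, *Plagl1* was at 2.48 CPM in cells with *Rsad2* and 3.07 CPM in cells without, and at 5.20 CPM (10 UMIs) in cells with *Cxcl10* and 2.88 CPM in cells without. The correlations are weak, across cells of 1 library that share a culture.

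**Figure D5:**
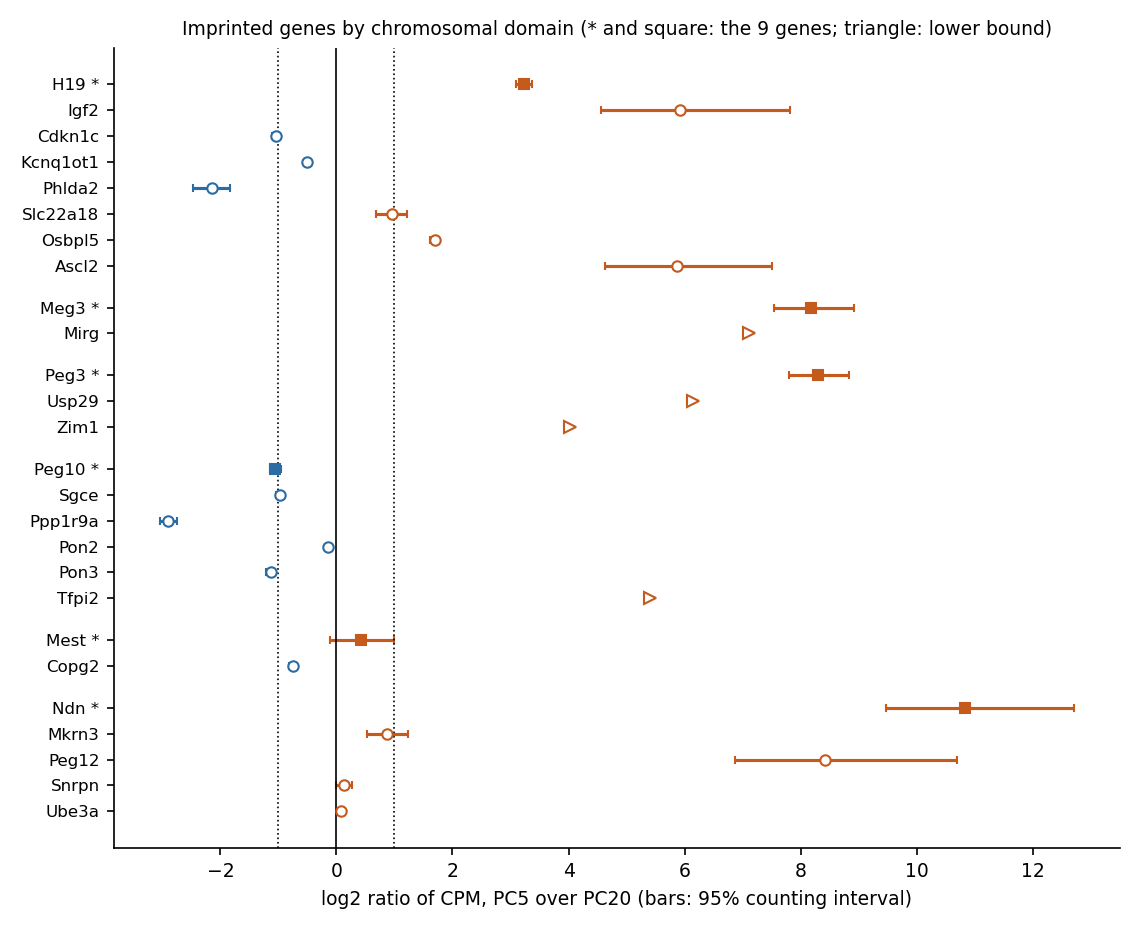
Log2 ratio of PC5 over PC20 for members (squares, starred) and neighbouring imprinted genes (open circles) grouped by chromosomal domain, with 95% counting intervals and dotted lines at 2-fold; triangles are lower bounds for genes with 0 UMIs in PC20, computed against 3 UMIs. Genes with under 20 UMIs in both libraries are left out, as are *Grb10* with its listed neighbour *Ddc*, *Plagl1* and *Dlk1*. *Meg3* and *Peg3* lie with *Mirg*, *Usp29* and *Zim1* on the PC5 side, while *Snrpn* and *Ube3a* lie near 0 beside *Ndn* at 10.83.

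The other imprinted genes split between the passages. Of 31 listed neighbours of the members, 29 were matched and 11 were expressed, with 2 past 2-fold higher in PC5, 3 higher in PC20 and 6 within 2-fold. In the *H19* region, the growth factor gene *Igf2*, which is paternally expressed and shares enhancers with *H19*, had 284 UMIs against 4 in PC20, for a log2 ratio of 5.93 (4.55 to 7.81), and was seen in 1.20% of thinned PC5 cells. *Osbpl5*, of a lipid transfer protein family, was higher in PC5 at 1.69 and *Cdkn1c* was higher in PC20 at -1.04 (10.6 CPM and 21.7 CPM). *Ascl2* (341 and 5 UMIs) and *Phlda2* (107 and 405 UMIs), which are named after their values were seen, were higher in opposite libraries. The region as listed also held *Kcnq1ot1*, at -0.50, named after its value was seen. *Igf2* thus went the same way as *H19*, while the other genes named from the region did not share a direction. Whether those other genes share a control region with *H19* was not examined.

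In the *Meg3* domain *Mirg* had 482 UMIs in PC5 and 0 in PC20, at least 138-fold higher against 3 UMIs. In the *Peg3* domain *Usp29* had 249 and 0 UMIs, at least 71.1-fold higher. Around *Ndn*, *Peg12* was higher in PC5 at 8.42 with 1198 and 3 UMIs, while *Snrpn* (0.13) and *Ube3a* (0.07) were within 2-fold. Around *Peg10*, the actin-binding neurabin gene *Ppp1r9a* was higher in PC20 at -2.90 and the paraoxonase gene *Pon3* at -1.13, and *Sgce*, which shares its promoter region with *Peg10*, was at -0.98. *Tfpi2*, of the same domain, went the other way, with 149 UMIs in PC5 and 0 in PC20, at least 42.6-fold higher. *Zim1* (57 and 0 UMIs), *Tfpi2*, *Sgce*, *Snrpn* and *Ube3a* are named after their values were seen.

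Of 24 imprinted genes listed from other parts of the genome, 23 were matched and 14 were expressed, with 2 higher in PC5, 3 higher in PC20 and 9 within 2-fold. *Blcap* (3.39) and *Dcn* (8.26) were higher in PC5, *Dcn* being also a fibroblast marker. The creatine synthesis gene *Gatm* (-4.16), the antisense RNA *Airn* (-2.08) and *Commd1* (-1.19) were higher in PC20. *Igf2r*, whose receptor clears IGF2, was at 59.0 CPM and 74.3 CPM, a log2 ratio of -0.33. It overlaps *Airn* on the opposite strand, as *Blcap* overlaps *Nnat* and *Commd1* overlaps *Zrsr1*. Reads of such genes are cleanly separated only if counting was by strand, which the sources used here do not state. *Nnat* and *Zrsr1* are named after their values were seen. Together both lists held 25 expressed genes, of which 4 were past 2-fold higher in PC5 and 6 in PC20, or 40% in either direction, near the 37.0% of all expressed genes. The median log2 ratio over the 25 was -0.15. Whether each of these genes is imprinted in PCs cannot be told from these counts.

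A list of 16 factors held those that set, keep or oxidise DNA methylation and those that act at imprinted regions. It is thus wider than the factors that keep imprints in place. Of the 16, 12 were expressed, with 0 past 2-fold higher in PC5, 2 higher in PC20 and 10 within 2-fold. That is 16.7% in either direction, beside 37.0% of all expressed genes. *Zfp57*, which guards methylated control regions, measured 11.2 CPM in PC5 against 41.5 CPM in PC20, or -1.88 as a log2 ratio (-1.95 to -1.82). *Hells*, a chromatin remodeller needed for DNA methylation, was at -1.13 and is itself higher in cycling cells of both libraries (1.57 in PC5 and 1.41 in PC20). *Dnmt1*, the maintenance methyltransferase, was at -0.62 and its partner *Uhrf1* at 0.05, both named after their values were seen.

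Among 10 partners of the members, all expressed, 3 were higher in PC5, 2 in PC20 and 5 within 2-fold, or 50% in either direction beside 37.0% of all expressed genes. The receptors that GRB10 binds were within 2-fold, *Igf1r* at 0.80 and *Insr* at -0.65, named after their values were seen. Their docking proteins went in opposite directions, with *Irs1* at 31.5 CPM in PC5 against 1.50 CPM in PC20 (4.40) and *Irs2* at 4.68 CPM and 55.9 CPM (-3.58). *Igf2bp3*, which binds *Igf2* and *H19* RNA, was higher in PC5 (3.04), as was *Notch1* (2.15), the receptor that DLK1 acts on, and the signalling adaptor *Traf2* was higher in PC20 (-1.19).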

How the data were processed

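The deposited counts are UMIs, given for every gene in every barcode called as a cell, which the authors made with Cell Ranger 5.0, as the submitters' processing notes name it, using 10x 3′ libraries mapped to the mm10 mouse genome; the counts were deposited without normalization for 1 library of each passage. Strand handling is not given in the sources used here. Gene identifiers were matched to GENCODE M21 on GRCm38, which held 30934 of 31053. The study's filter was applied (more than 1000 genes, mitochondrial share under 20%), without a doublet caller.

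Levels in CPM rest on the UMIs summed over kept cells, 223054273 in PC5 and 191122251 in PC20. Intervals at the 95% level are exact Poisson for a level, conditional binomial for a ratio and Clopper-Pearson for a share. No test was made because each passage has 1 library. Shares were taken after thinning cells at random to the same number of UMIs, and the 1103 PC5 and 275 PC20 cells below it were left out. Background came from 8 of 11 listed marker genes of neurons, microglia and oligodendrocytes; *Tubb3*, *Csf1r* and a gene not reported here were left out after their values were seen.

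The 9 genes and all lists were chosen with earlier results of these data known. All 9 are named, with listed genes that were expressed and past 2-fold, *Igf2*, *Igf2r* and *Cdkn1c*; other names are marked. Not matched were *Rian*, *Zfp264* and *Peg13*. Alternatives were other cell filters, depths, totals, weights, centring, folds, detection minimums and pseudocounts. The computation was tested on simulated counts. Python 3.11.15, numpy 2.4.6, scipy 1.17.1 and pandas 2.3.3 were used.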

Additional observations from a re-analysis of the deposited data

Results flagged for a closer look

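*Grb10* differed between cycling and other cells in opposite directions in the libraries, with a log2 ratio of cycling over other cells of 0.17 in PC5 and -1.17 in PC20. It rests on 198 thinned *Grb10* UMIs in PC20, 75 in cycling and 123 in other cells, and the difference between the libraries was not tested.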

How the results depend on the processing

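No paired analysis was possible because each passage has 1 library and no result comes from a test. For the 7 expressed genes, all 84 values under 12 alternatives kept their direction, and 69 of the 70 without a pseudocount stayed past 2-fold; the exception was *Peg10* at -0.84 in cells with no UMI of *Pdgfra*, *Lum*, *Dcn*, *Cdh5* or *Kdr*, an alternative chosen after seeing the data, which left 1 gene higher in PC20. *Mest* ranged from -0.28 to 0.57. *Dlk1* has 0 UMIs in PC20 and was given no ratio. Leaving out the 1% of cells with most UMIs of each gene moved *H19* to 4.55 and *Plagl1* to -4.72. For *Meg3*, *Peg3* and *Ndn*, found in 12, 22 and 4 PC20 cells, it removed every PC20 UMI. Their values of 10.65, 11.58 and 11.16 were set by the limit of 3 UMIs. They are no measured shifts, though they are among the 69 values past 2-fold.

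A 3-fold threshold left 5 members and 4 other imprinted genes higher in PC5. It left 1 member and 3 other imprinted genes higher in PC20, beside 1052 and 1007 of all 10504 genes higher in PC5 and PC20. Detection in 10% of cells of both libraries tested only 1 member, giving 0 higher in PC5 and 1 in PC20, with 2 and 3 other imprinted genes. Of the 8612 genes compared, 1334 were higher in PC5 and 1214 in PC20. Detection in 1% of cells of either gave 11 other imprinted genes higher in PC5 and 8 in PC20, where the main setting gave 4 and 6. Of the 13539 genes compared, 3023 were higher in PC5 and 2707 in PC20. More than 3 UMIs gave 15 other imprinted genes higher in PC5 and 8 in PC20. Of the 18294 genes compared, 5005 were higher in PC5 and 3626 in PC20. A pseudocount of 1 per 10000 UMIs left 0 members and 0 other imprinted genes in either direction and 147 and 144 of all genes, since these levels lie under the pseudocount. A pseudocount of 0.1 left 5 members and 3 other imprinted genes higher in PC5 and 1 and 3 higher in PC20, with 968 and 855 of all genes. Depth limits *Dlk1*, *Mest* and, in PC20, *Meg3*, *Peg3* and *Ndn*, and passage and isolation cannot be told apart.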
